A study of Mus musculus with 12 samples.

Results

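Nox4, the NADPH oxidase of the kidney tubule, was described together with 6 other genes of the NADPH oxidase complexes: Cyba, Cybb, Ncf1, Ncf4, Rac1 and Rac2. The members were chosen by gene symbol, from probe sets annotated with a single symbol, and each gene was represented by its probe set with the highest mean over the 12 arrays. The 7 genes had 15 such probe sets, of 45101 on the array, and 3 of the 7 genes (Nox4, Cyba and Rac1) had signal above 4 (log2) on at least 3 arrays and were tested. RNA came from proximal tubules isolated from kidney by Percoll centrifugation from mice aged 20 weeks on a normal diet, with 3 samples in each of 4 groups, and 1 array per sample. The groups were dB/dB catalase-Tg, which carry the dB/dB mutation and the catalase transgene, dB/dB, which carry the mutation alone, catalase-Tg, which carry the transgene alone, and wild type. The labels give no sex, strain background or transgene promoter, and do not say whether each sample was a mouse of its own. The p-values therefore rest on the spread among these samples, part or all of which may be technical. The dB/dB mutation disables the leptin receptor, and the mice grow obese and diabetic. Published descriptions of such mice, which the labels do not repeat, give the transgene as rat catalase driven by the Kap promoter, a promoter active in proximal tubules.

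NADPH oxidases move electrons from NADPH across a membrane to oxygen. The phagocyte enzyme has a membrane core of Cybb (gp91phox, also called Nox2) and Cyba (p22phox), and makes superoxide once cytosolic subunits, among them Ncf1 (p47phox) and Ncf4 (p40phox), and the GTPase Rac2 or Rac1 have joined it. Nox4 also pairs with Cyba, but needs no cytosolic subunit, is active without a trigger and releases mainly hydrogen peroxide, the substrate of catalase. It was first found as an abundant oxidase of the kidney.

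The promoters of Nox4, Cyba and Cybb are shown because Nox4 and Cyba carried the signal in these tubules while Cybb, the phagocyte counterpart of Nox4, lay at the floor. Each is 300 bases, 250 before to 50 after the gene's start, from RefSeq on GRCm38.p6, 5′ to 3′ on the gene's strand. Capitals mark the letters GGGCGG (a GC box) or GAGGAA (the core bound by PU.1, a transcription factor of myeloid cells), on either strand. The Nox4 promoter is at chr7:87246399-87246698 (plus strand), the Cyba promoter at chr8:122432891-122433190 (minus strand) and the Cybb promoter at chrX:9469275-9469574 (minus strand).
Nox4: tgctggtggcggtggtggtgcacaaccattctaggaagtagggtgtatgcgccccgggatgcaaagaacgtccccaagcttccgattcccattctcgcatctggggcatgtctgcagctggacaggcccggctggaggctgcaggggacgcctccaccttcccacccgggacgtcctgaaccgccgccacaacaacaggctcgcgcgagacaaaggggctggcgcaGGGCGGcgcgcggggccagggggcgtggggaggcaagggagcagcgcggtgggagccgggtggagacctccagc
Cyba: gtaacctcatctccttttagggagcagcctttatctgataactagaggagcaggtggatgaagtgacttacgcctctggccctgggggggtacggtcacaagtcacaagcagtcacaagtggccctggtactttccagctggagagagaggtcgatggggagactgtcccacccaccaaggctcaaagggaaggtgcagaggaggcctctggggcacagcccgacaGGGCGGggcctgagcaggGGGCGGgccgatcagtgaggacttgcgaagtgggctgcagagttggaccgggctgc
Cybb: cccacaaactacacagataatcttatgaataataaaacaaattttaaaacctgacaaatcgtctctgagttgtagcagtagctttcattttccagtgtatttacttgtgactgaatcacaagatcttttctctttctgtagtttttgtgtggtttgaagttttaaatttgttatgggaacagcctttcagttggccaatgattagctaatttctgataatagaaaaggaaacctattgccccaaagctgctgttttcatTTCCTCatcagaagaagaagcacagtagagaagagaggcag

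Nox4 held 1 GC box and Cyba 2, all on the gene's strand, and Cybb none. A GC box was found in 35.7% of the 32851 promoters of the same length. Cybb held 1 PU.1 core, on the other strand, a match found in 28.3% of all promoters, and Nox4 and Cyba none. GC content was 68.3% in Nox4, 60.7% in Cyba and 35.3% in Cybb, against a median of 52.7% over all promoters. TATAAA (the TATA box), ACGTG (the core of the hypoxia response element) and TGACNNNGC (the core of the antioxidant response element) were searched on both strands, overlaps with other motifs allowed, and none was in these 3 windows. They were found in 13.6%, 19.6% and 12.4% of all promoters. Ncf1, also matched in the promoter table, held 1 GC box and no PU.1 core. These are matches of letters, which were not tested as binding sites. The promoters of Ncf4, Rac1 and Rac2 were not used here.

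Values are GCRMA expression (log2) as deposited, with a floor at 2.302 on every array. Between 36.95% and 38.59% of probe sets lay above 4 on an array. Catalase mouse probe sets were bright in all groups, the brighter at 12.44 ± 0.59 (SD, n = 3) in dB/dB catalase-Tg, 12.39 ± 0.16 in dB/dB, 12.27 ± 0.24 in catalase-Tg and 11.92 ± 1.10 in wild type. The second read 12.27 ± 0.73, 11.59 ± 0.22, 12.07 ± 0.54 and 11.63 ± 1.24 in the same order. It was higher on average with the transgene, but the arrays overlapped, with dB/dB catalase-Tg 1 at 11.43 within the dB/dB range. Lepr lay between 2.302 and 3.033 on all of its probe sets, so neither gene checks the labels. The arrays of a group differed. Wild type 1 correlated better with dB/dB arrays (mean r = 0.987 across probe sets) than with the other wild-type arrays (0.955). For dB/dB catalase-Tg 1 the means were 0.983 with dB/dB arrays and 0.961 within the group. Wild type 2 and 3 and dB/dB catalase-Tg 2 and 3 correlated best with catalase-Tg arrays, at 0.984, 0.983, 0.985 and 0.984, against 0.963, 0.976, 0.978 and 0.978 within their own groups. So 6 of the 12 arrays were closer to another group than to their own. Wild type 2 carried Xist, a transcript of female cells, at 11.91 with Y-linked Eif2s3y at the floor. Wild type 3 carried both, at 6.72 and 7.89. On the other 10 arrays Xist was between 2.31 and 2.67. Proximal tubule markers were present on every array (all 16 listed passed the filter, Fbp1 at 12.74 or above), but so were markers of the distal nephron and of endothelium, in amounts that varied.

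Nox4, the catalytic subunit, was bright on all 12 arrays. Its brighter probe set read 10.67, 12.15 and 12.21 on the dB/dB catalase-Tg arrays 1 to 3, 10.56, 11.05 and 10.75 on the dB/dB arrays, 12.24, 12.23 and 12.48 on the catalase-Tg arrays, and 10.33, 12.97 and 11.91 on the wild-type arrays. Wild type held both the lowest and the highest of all 12 values. The 3 catalase-Tg arrays lay close together, dB/dB catalase-Tg 1 lay among the dB/dB arrays, and the other 2 dB/dB catalase-Tg arrays lay just below catalase-Tg. In order, Nox4 averaged 12.32 ± 0.14 in catalase-Tg, 11.74 ± 1.33 in wild type, 11.68 ± 0.87 in dB/dB catalase-Tg and 10.79 ± 0.25 in dB/dB (SD, n = 3 each), and the ranges of neighbours in this order overlapped. The second Nox4 probe set read 10.65, 11.30 and 11.50 in dB/dB catalase-Tg, 10.02, 10.82 and 10.24 in dB/dB, 11.78, 11.48 and 11.82 in catalase-Tg, and 9.68, 12.49 and 11.21 in wild type. Both probe sets gave the same picture, with wild type 1 lowest, wild type 2 highest and all dB/dB arrays below all catalase-Tg arrays.

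Cyba, the membrane partner that stabilises both Nox4 and Cybb, followed the same arrays. Its single probe set read 11.23, 12.57 and 12.15 in dB/dB catalase-Tg, 11.27, 11.13 and 11.34 in dB/dB, 12.56, 12.49 and 12.49 in catalase-Tg, and 10.38, 12.26 and 12.14 in wild type. Catalase-Tg lay above every wild-type array, and dB/dB lay above wild type 1 and below wild type 2 and 3. In order, Cyba averaged 12.51 ± 0.04 in catalase-Tg, 11.98 ± 0.69 in dB/dB catalase-Tg, 11.59 ± 1.05 in wild type and 11.24 ± 0.11 in dB/dB, and again the ranges of neighbours overlapped. Rac1, the widely expressed GTPase that can activate the phagocyte oxidase, varied little. It read 10.78, 11.00 and 10.67 in dB/dB catalase-Tg, 11.07, 10.46 and 11.15 in dB/dB, 10.78, 10.89 and 10.88 in catalase-Tg, and 11.21, 10.69 and 10.62 in wild type, and all groups overlapped. A second Rac1 probe set ran from 8.59 to 9.42, and the dimmest lay at 2.302 to 2.338, so that probe set gave no signal for a gene that the other 2 measured on all 12 arrays.

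**Figure D1:**
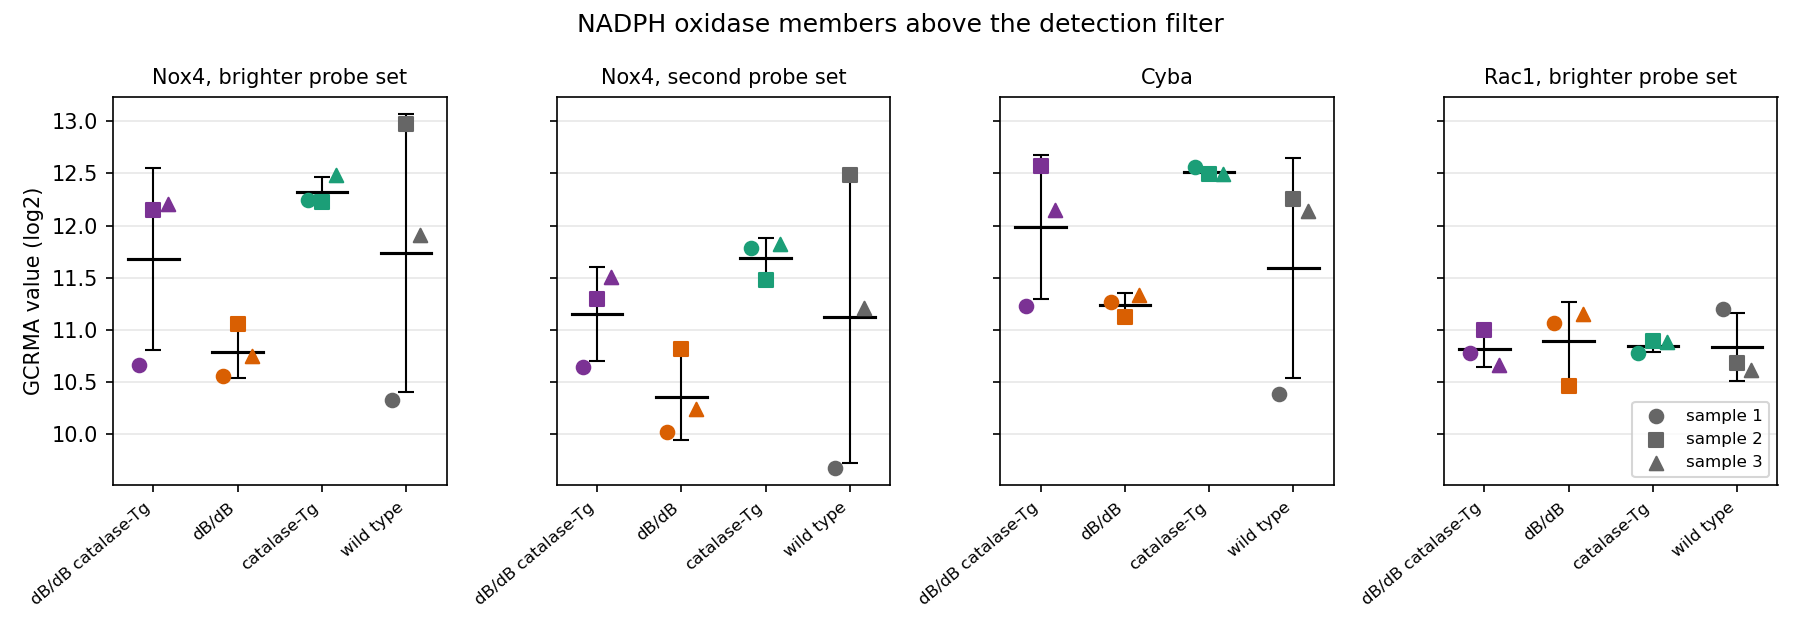
GCRMA values (log2, y axis) of both Nox4 probe sets, of Cyba and of the brighter Rac1 probe set on each array, by group (x axis). Points are arrays, shaped by sample number, with bars at the mean and the SD of 3 arrays. Wild type spans 10.33 to 12.97 for Nox4, wider than the gap between the means of any of the groups, and Rac1 stays between 10.46 and 11.21.

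The subunits of the phagocyte enzyme were near the floor in all groups. Cybb, the catalytic subunit of phagocytes, had 3 probe sets with highest values of 2.587, 2.401 and 2.320. Ncf1, the organiser subunit, did not exceed 3.285 on any of 3 probe sets, with an array-to-array range of 2.94 to 3.29 on the brightest. Ncf4, the p40phox subunit, read 2.303 on 10 arrays, 2.739 on dB/dB catalase-Tg 1 and 2.638 on dB/dB 2. Rac2, the GTPase of blood cells, read 2.547 to 2.613 on 11 arrays and 3.773 on dB/dB catalase-Tg 1, still below 4. These 4 genes were below the filter and were not tested, and a value at the floor does not show that a transcript is absent.

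Leukocyte markers, whose cells use these subunits, were present in part. Of 20 listed, 9 passed the filter. Csf1r, the macrophage growth factor receptor, read 5.61 to 7.34 and Lcp1, an actin-bundling protein of leukocytes, up to 6.84, both above 4 on all 12 arrays, and Lyz2, a lysozyme of myeloid cells, reached 7.99. In contrast, Cd68, Itgam, Fcgr3, Aif1 and C1qc did not exceed 2.773 on any array. The score of this list, the mean deviation of the 9 tested markers from their means over the 12 arrays, ran from -0.88 to 0.64 in dB/dB catalase-Tg, from -0.08 to 1.27 in dB/dB, from -1.06 to 0.50 in catalase-Tg and from -1.02 to 1.01 in wild type. On the pair of arrays with the raised Ncf4 values it was 0.64 (dB/dB catalase-Tg 1) and 1.27 (dB/dB 2), and Ptprc, the pan-leukocyte phosphatase CD45, read 5.01 and 5.82 there. Wild type 1, with a score of 1.01 and Ptprc at 5.31, and catalase-Tg 1, with 0.50 and 5.35, had Ncf4 at 2.303, so Ncf4 did not follow these markers on every array. The part of such cells in these values was not tested.

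**Figure D2:**
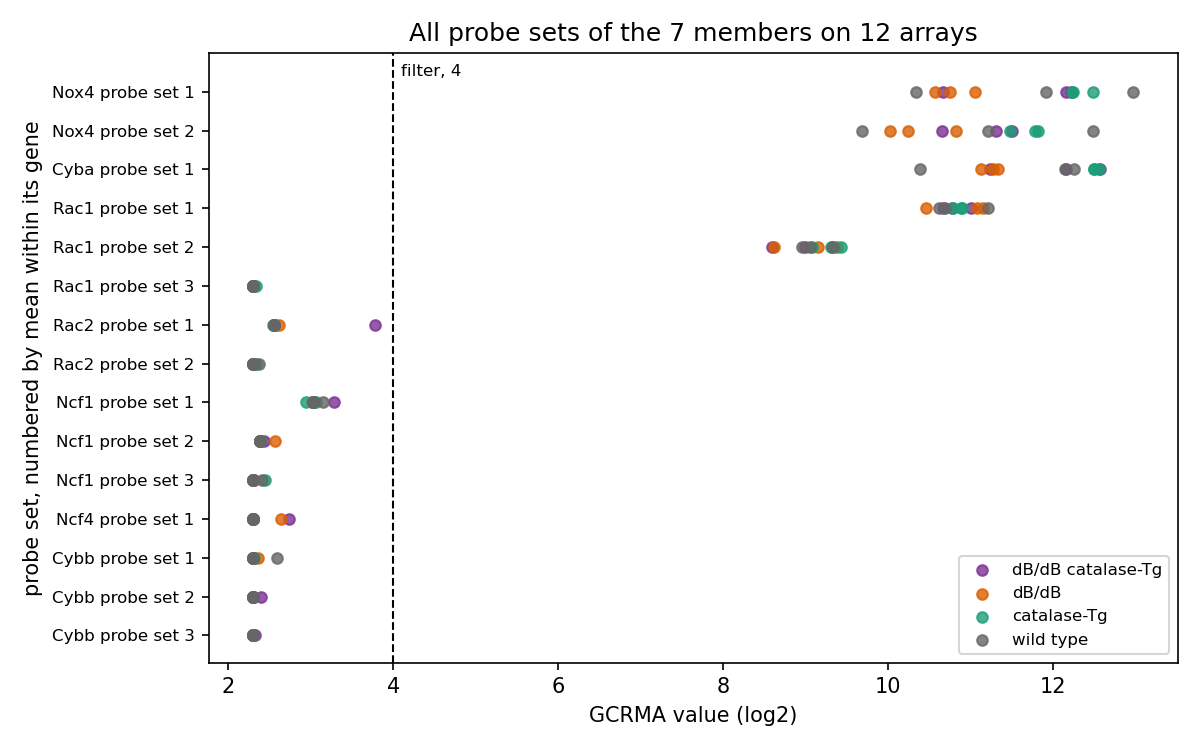
GCRMA values (log2, x axis) of all 15 probe sets of the 7 members, 1 row each, with 12 arrays coloured by group and a dashed line at the filter of 4. The 2 Nox4, the Cyba and 2 of the 3 Rac1 probe sets lie at 8.59 or above, and all the others lie below the line, Rac2 on dB/dB catalase-Tg 1 being nearest at 3.773.

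The comparison of dB/dB against wild type sets mice with the mutation beside mice without it. Xist was found on wild type 2 and 3 and on no array of another group. What sex adds to differences from wild type therefore cannot be told apart from the mutation or the transgene, and was not tested. Nox4 and Cyba were lower on average in dB/dB, and neither difference passed. By limma (moderated test, all 12 arrays in the fit, Benjamini-Hochberg adjusted over 18144 probe sets, threshold 0.05), 0 of the 3 tested members were called and 0 at an unadjusted p under 0.05, against 0% of all probe sets called and 4.16% at an unadjusted p under 0.05. Nox4 differed by -0.95 (log2, SE 0.59, 95% interval -2.27 to 0.37, adjusted p = 0.767) and its second probe set by -0.76 (SE 0.57). Cyba differed by -0.35 (SE 0.47, interval -1.39 to 0.69, adjusted p = 0.802) and Rac1 by 0.06 (SE 0.23, interval -0.45 to 0.56, adjusted p = 0.933). The wild-type arrays decided the size. Without wild type 1 Nox4 differed by -1.65 (adjusted p = 0.104) and Cyba by -0.95 (0.148), without wild type 2 by -0.33 and -0.02, and Cyba without wild type 3 by -0.07. Wild type 1 and dB/dB catalase-Tg 1 are the arrays outside dB/dB that correlated best with dB/dB arrays, and also the lowest of their groups in Nox4 and Cyba, and leaving them out was chosen after their values were seen. Without them the -1.65 and -0.95 passed (adjusted p = 0.0124 and 0.0123), as did 2597 of all 18144 probe sets, which sets dB/dB against wild type 2 and 3, the arrays with Xist, while without wild type 2 and 3 the differences were 0.46 and 0.86 (adjusted p = 1 for both).

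Mice with the transgene alone are compared by catalase-Tg against wild type, where again only wild-type arrays carried Xist. Both Nox4 and Cyba were higher on average in catalase-Tg, Cyba in 3 of 3 arrays, and neither passed. Cyba differed by 0.92 (log2, SE 0.47, interval -0.12 to 1.96, adjusted p = 0.578), Nox4 by 0.58 (SE 0.59, interval -0.74 to 1.90, adjusted p = 0.770) and Rac1 by 0.01 (SE 0.23, interval -0.49 to 0.52, adjusted p = 0.989). By limma 0 of 3 members were called, also at an unadjusted p under 0.05, against 0.022% of all probe sets called and 9.15% at that unadjusted p. Without wild type 1 Nox4 turned to -0.12 and Cyba to 0.32. Without wild type 2 they differed by 1.20 and 1.25. Without wild type 2 and 3, which leaves wild type 1 alone and assumes it varies like the other groups, Cyba differed by 2.13 and passed (adjusted p = 0.0179), as did 2180 of all 18144 probe sets, and Nox4 differed by 1.98 (adjusted p = 0.0507).

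In diabetic mice, dB/dB catalase-Tg against dB/dB, Nox4 and Cyba were higher in 2 of 3 transgenic arrays than in all dB/dB arrays, and dB/dB catalase-Tg 1 lay within the dB/dB range. Nox4 differed by 0.89 (log2, SE 0.59, interval -0.43 to 2.20, adjusted p = 0.645) and by 0.79 (SE 0.57) on its second probe set. Cyba differed by 0.74 (SE 0.47, interval -0.30 to 1.78, adjusted p = 0.640) and Rac1 by -0.08 (SE 0.23, interval -0.58 to 0.43, adjusted p = 0.912). Called were 0 of 3 members by limma, also at an unadjusted p under 0.05, against 0.00551% of all probe sets called and 7.5% at that unadjusted p. Without dB/dB catalase-Tg 1 the differences were 1.39 for Nox4 (adjusted p = 0.208) and 1.12 for Cyba (0.208). Both genes passed without wild type 1 and dB/dB catalase-Tg 1 (adjusted p = 0.0212 and 0.00892) and with array weights, which set dB/dB catalase-Tg 1 to a weight of 0.172 (1.42, adjusted p = 0.0034 for Nox4, and 1.02, adjusted p = 0.00505 for Cyba). Under these settings 2829 and 6989 of all 18144 probe sets passed too.

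The transgenic groups, dB/dB catalase-Tg against catalase-Tg, differed by probe set. On the brighter Nox4 probe set the 3 dB/dB catalase-Tg arrays all lay below the catalase-Tg arrays. On the second Nox4 probe set 2 did, with a difference of -0.54 (log2, SE 0.57), and for Cyba 2 lay below and 1 above. The Nox4 difference on the brighter probe set was -0.64 (log2, SE 0.59, interval -1.96 to 0.67, adjusted p = 0.827), that of Cyba -0.53 (SE 0.47, interval -1.57 to 0.51, adjusted p = 0.819) and that of Rac1 -0.04 (SE 0.23, interval -0.54 to 0.47, adjusted p = 0.977). None of the 3 was called by limma or had an unadjusted p under 0.05, against 0.0276% of all probe sets called and 6.86% at that unadjusted p. Without dB/dB catalase-Tg 1 Nox4 differed by -0.14 and Cyba by -0.15. The 4 comparisons share groups, so their values are not independent of each other.

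Averaged over both transgene states, the dB/dB effect was -0.80 for Nox4 (log2, SE 0.42, interval -1.73 to 0.13, adjusted p = 0.432) and -0.44 for Cyba (SE 0.33, adjusted p = 0.526), with 0 of 3 members called by limma and 0.0165% of all probe sets called. Averaged over both dB/dB states, the transgene effect was 0.73 for Nox4 (SE 0.42, interval -0.20 to 1.66, adjusted p = 0.365) and 0.83 for Cyba (SE 0.33, interval 0.09 to 1.57, unadjusted p = 0.0307, adjusted p = 0.240). That was the 1 member effect with an unadjusted p under 0.05, in a comparison where 18.1% of all probe sets had one, and 0.0276% were called. The interaction, which asks whether the transgene effect differed between dB/dB and other mice, was 0.31 for Nox4 (SE 0.84, interval -1.55 to 2.17) and -0.18 for Cyba (SE 0.66, interval -1.66 to 1.29), both with adjusted p = 1, and 0.00551% of all probe sets were called.

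**Figure D3:**
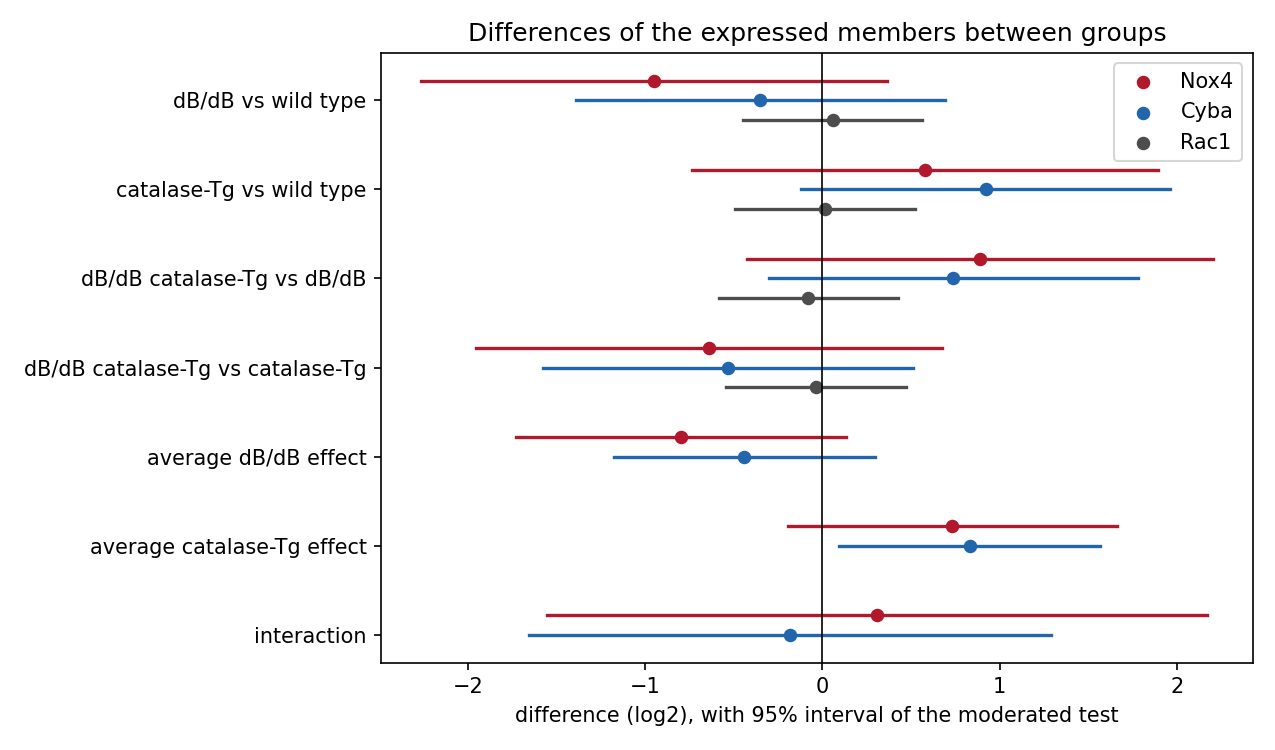
Differences (log2, x axis) of Nox4, Cyba and Rac1 in each comparison (y axis), with 95% intervals of limma's moderated test. Rac1 is drawn for the 4 comparisons between pairs of groups. The interval of Cyba for the average transgene effect, 0.09 to 1.57, is the 1 that does not include 0, and no difference passed after adjustment.

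Nox4 and Cyba varied across arrays together with 4 of the 7 cell type marker lists. The 5 arrays lowest in Nox4 (wild type 1, the 3 dB/dB arrays and dB/dB catalase-Tg 1, at 10.33 to 11.05, against 11.91 to 12.97 on the other 7) were the same 5 that were lowest in Cyba, at 10.38 to 11.34 against 12.14 to 12.57. They were also the 5 lowest in the proximal tubule score, the mean deviation of 16 markers such as Slc34a1 and Lrp2, at -1.90 to -0.28 against -0.04 to 0.80. Endothelial markers ran the other way, with scores of 0.84 to 1.82 on the 5 and -1.83 to -0.06 on the 7. Markers of the loop of Henle and distal tubule scored 1.12 to 1.81 on the 5 and -2.49 to 0.42 on the 7, and fibroblast and mural markers 0.59 to 1.83 and -1.61 to 0.05. The other 3 lists overlapped between the 5 and the 7 arrays: podocyte markers scored 0.67 to 2.96 and -2.58 to 2.07, collecting duct markers -0.28 to 1.04 and -0.59 to 0.01, and leukocyte markers -0.08 to 1.27 and -1.06 to 0.52. Rac1 did not follow: 2 of the 5 were among its 5 lowest arrays and 3 among its 5 highest. In bulk RNA, fewer cells of a type and less RNA per cell cannot be told apart.

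With the proximal tubule score as a covariate the Nox4 difference was 0.20 in dB/dB catalase-Tg against dB/dB (adjusted p = 0.978, against 0.89 without the covariate) and -0.09 in catalase-Tg against wild type (against 0.58). For dB/dB mice set against wild type it was -0.86 (adjusted p = 0.220, -0.95 without the covariate). Cyba was at 0.20, 0.40 and -0.28 in the same comparisons. The score differs between the groups itself: the 16 proximal tubule markers had a median difference of 0.75 in dB/dB catalase-Tg against dB/dB, with 16 above 0 and 0 called, and of -0.02 between dB/dB and wild type, with 7 above 0, where the medians of all probe sets were -0.02 and -0.11. In catalase-Tg against wild type their median was 0.665, with 15 above 0 and 0 called, where that of all probe sets was -0.02. Because the score is made of transcripts and separates the same 5 and 7 arrays as Nox4 and Cyba, this fit cannot tell cell make-up from other differences. The part of cell make-up in the Nox4 and Cyba values was not tested.

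**Figure D4:**
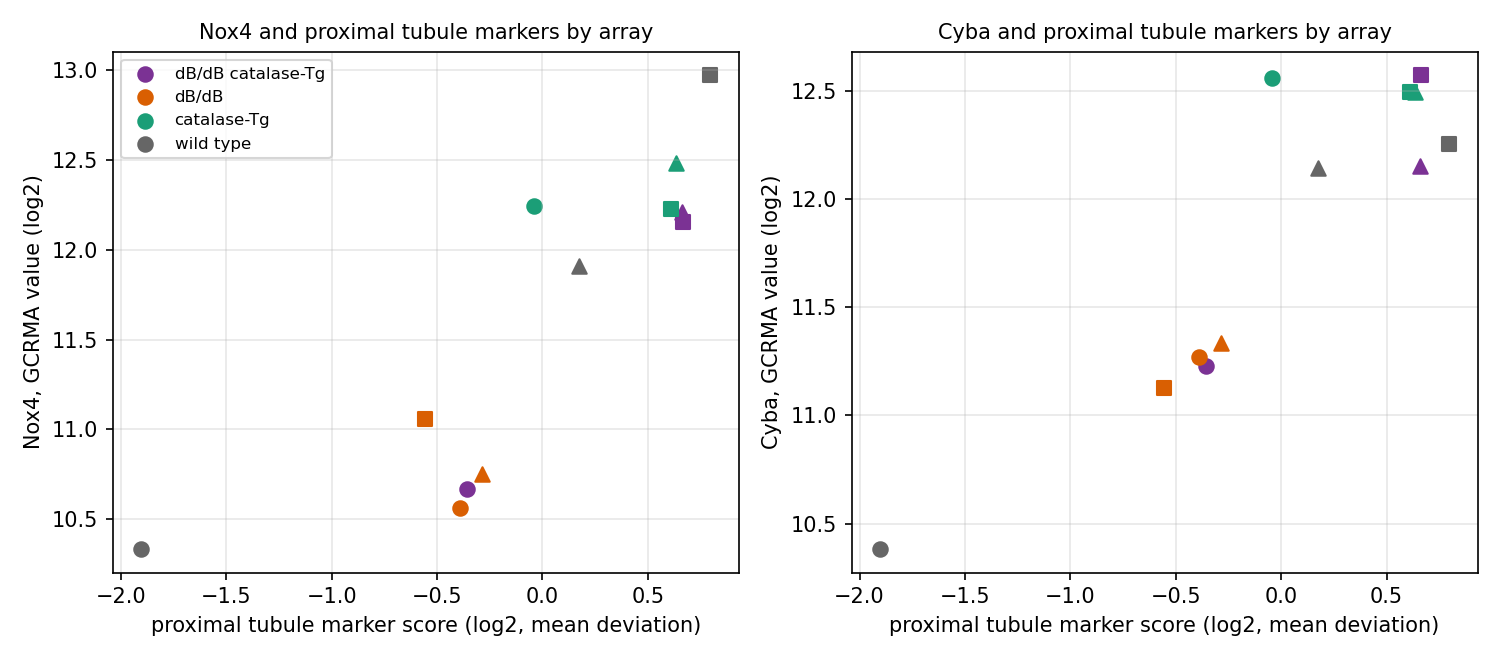
Nox4 and Cyba (GCRMA value, log2, y axes) against the proximal tubule marker score of the same array (log2, mean deviation of 16 genes, x axis), coloured by group and shaped by sample number as in the plot of values by group. The 5 arrays at scores of -0.28 or below hold Nox4 values up to 11.05 and Cyba values up to 11.34, and the 7 others hold higher values of both.

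Among 9743 other genes tested, each by its brightest probe set, those whose values over the 12 arrays were most like Nox4 by Pearson's r were Cd302 (0.978), a C-type lectin receptor, Drg2 (0.977), a GTP-binding protein, Slc39a5 (0.973), a zinc transporter, Rcc1 (0.970), the exchange factor of the GTPase Ran, and Manf (0.97), a protein of the endoplasmic reticulum. Cyba stood in place 294 with r = 0.911 and Rac1 in place 6948 with r = -0.435. These 12 arrays fall into 5 low and 7 high ones for Nox4, so that any gene that separates them has a high r, and no p is given.

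Of 12 other oxidase subunits and partners listed, 7 had a probe set of a single symbol and 2 passed the filter. Poldip2, a protein that binds Cyba and raises Nox4 activity, read 7.41 to 8.26 on the 12 arrays. Cybc1, the chaperone of the Cybb and Cyba pair, read 4.95 to 5.90. Duox1, which makes hydrogen peroxide at epithelial surfaces, reached 3.41, and Noxo1 and Rac3, which serve other oxidases, and the Duox maturation factors Duoxa1 and Duoxa2 stayed below 3. Neither Poldip2 nor Cybc1 was called in any of the 7 comparisons, their smallest adjusted p being 0.502, and their median differences were -0.15 in dB/dB against wild type, -0.11 in catalase-Tg against wild type and -0.05 in dB/dB catalase-Tg against dB/dB (all probe sets -0.11, -0.02 and -0.02).

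Of 25 regulators of Rac and of oxidase assembly listed, 15 passed the filter and 0 were called in any of the 7 comparisons. Their median difference was -0.03 in dB/dB against wild type, -0.12 in catalase-Tg against wild type, -0.10 in dB/dB catalase-Tg against dB/dB and -0.06 between the transgenic groups, where all probe sets had -0.11, -0.02, -0.02 and -0.10. Vav3, an exchange factor that loads Rac with GTP, had the smallest p. It read 5.59, 5.78 and 5.84 in dB/dB catalase-Tg, 6.85, 5.04 and 6.26 in dB/dB, 2.64, 3.75 and 3.86 in catalase-Tg, and 7.03, 5.86 and 5.84 in wild type. Only the catalase-Tg arrays lay below 4, and they overlapped with no other group. Vav3 was named for its small p, and how many of all probe sets separate this way was not counted. The Vav3 difference was -2.83 in catalase-Tg against wild type (log2, SE 0.50, adjusted p = 0.309) and 2.32 in dB/dB catalase-Tg against catalase-Tg (SE 0.50, adjusted p = 0.424). The first passed under 2 of 24 alternatives, 1 of them without wild type 2 (-3.02, adjusted p = 0.041). The second passed under 1 of 24, with array weights (2.05, adjusted p = 0.00528), where 883 of all probe sets passed. Counts of all probe sets with 1 array left out are given at the end. Without wild type 2 and 3, which leaves wild type 1 alone, the first was -3.61. Over all alternatives the adjusted p ran up to 0.755 for the first and from 0.00528 to 0.854 for the second. Since catalase-Tg lay below the filter, background limits the size. The 8 markers of the loop of Henle and distal tubule went the same way as Vav3, with a median difference of -2.09 in catalase-Tg against wild type (0 of 8 above 0) and of 2.55 between the transgenic groups (8 of 8 above 0), and 0 called in either. Their scores were -2.49 to -1.63 in catalase-Tg. The 6 podocyte markers tested had medians of -3.05 and 1.55 in these comparisons. The part of these cell types in the Vav3 values was not tested.

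Prex2, another exchange factor of Rac, read 5.23, 4.54 and 4.44 in dB/dB catalase-Tg, 5.72, 5.37 and 6.34 in dB/dB, 3.85, 3.53 and 4.18 in catalase-Tg, and 5.80, 4.29 and 4.71 in wild type. Each transgenic group lay below its counterpart without overlap, but 3.85 and 3.53 in catalase-Tg lay below the filter of 4, so background limits the size. Prex2 was named for its small p, and the share of all probe sets that separate this way was not counted. Its average transgene effect was -1.08 (log2, SE 0.29, adjusted p = 0.184). That passed under 4 of 22 alternatives (adjusted p from 0.00854 to 0.435 over all of them), one of them without wild type 2 (-1.24, adjusted p = 0.0348). Counts of all probe sets under such settings are given at the end. Prkca, a protein kinase C of the family that phosphorylates Ncf1, read 4.45, 5.08 and 4.95 in dB/dB catalase-Tg, 5.85, 5.44 and 5.52 in dB/dB, 4.75, 5.25 and 5.04 in catalase-Tg, and 5.75, 5.48 and 5.26 in wild type. It too had lower values in both transgenic groups, with an average effect of -0.63 (SE 0.16, adjusted p = 0.184). That passed under 2 of 22 alternatives, one of them array weights (-0.47, adjusted p = 0.0209), where 4785 of all 18144 probe sets passed too. Without wild type 2 and 3, which leaves wild type 1 alone, the effect was -0.76. The endothelial scores, which ran from -1.19 to 1.49 in dB/dB catalase-Tg, 0.84 to 1.82 in dB/dB mice, -1.83 to -0.12 in catalase-Tg and -1.47 to 1.55 in wild type, are given beside these genes. The 8 markers of the loop and distal tubule had a median average transgene effect of -1.54 (0 of 8 above 0). That of the 6 podocyte markers tested was -2.845 (0 of 6 above 0). The part of these cell types in the Prex2 and Prkca values was not tested.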

How the data were processed

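The deposited values are log2 expression, which the authors made with GCRMA, per the submitters' processing notes. These notes also name limma, and give no version of either. The array number limits precision. Of 45101 probe sets, 34945 had 1 gene symbol in the platform annotation, 932 several and 9160 none, and 64 array controls were left out. The members and gene lists were chosen with earlier results of these data known. Probe sets above 4 on at least 3 arrays (18144) were fitted with limma 3.58.1 in R 4.3.3 (lmFit and eBayes, 4 group means, all 12 arrays), with p-values adjusted by Benjamini-Hochberg at 0.05, after the procedure was tested on simulated data. The simulated arrays varied independently of each other, so that test does not cover deviations that arrays share. Named genes were the members, the 5 genes most correlated with Nox4, and, of the listed regulators, the 3 with the smallest p-values. The share of all probe sets whose groups did not overlap was not counted, so separations of 3 arrays from 3 are given as description only.

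Samples of different groups share numbers 1 to 3 in the labels. Deviations from the group means correlated between same-numbered samples at r = -0.179 to 0.705 over 18 pairs, 13 of them over 0.1. Every same-numbered pair was over 0.1 in catalase-Tg against wild type and in dB/dB catalase-Tg against catalase-Tg, and not in the other comparisons. The same held between wild type and dB/dB catalase-Tg, which were not compared, at 0.705, 0.525 and 0.265 for numbers 1 to 3. Pairs with different numbers ran from -0.630 (wild type 1 with dB/dB catalase-Tg 2) to 0.584 (wild type 2 with dB/dB catalase-Tg 3). A shared number therefore does not by itself mark a pairing. What makes arrays of different groups deviate together was not tested, and the main fit treats all arrays as independent. Alternatives were other filters, normalizations, probe sets, covariates and array weights, a replicate block, a fit of only the groups compared, and leaving out each array. Leaving out wild type 1 and dB/dB catalase-Tg 1, which correlated best with dB/dB arrays, or the 2 arrays with Xist, was chosen after seeing the data.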

Additional observations from a re-analysis of the deposited data

How the results depend on the processing

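No tested member was called when any single array was left out, in any of the 7 comparisons. With the replicate block no member call changed (Nox4 between dB/dB and wild type had an adjusted p of 0.571), and over all probe sets 1 was called for the average dB/dB effect and 0 for the interaction. Without wild type 1 and dB/dB catalase-Tg 1, 2 members (Nox4 and Cyba) were called in dB/dB against wild type, 2 in dB/dB catalase-Tg against dB/dB, 2 for the average dB/dB effect and 1 (Cyba) for the average transgene effect. Without wild type 2 and 3, 1 (Cyba) was called in catalase-Tg against wild type and 2 for the average transgene effect. With array weights, 2 were called in dB/dB catalase-Tg against dB/dB, 1 (Nox4) for the average dB/dB effect and 2 for the average transgene effect.

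The counts over all probe sets moved far more. In the order of the report, from dB/dB against wild type as the first to the transgenic groups against each other as the fourth, then the average dB/dB effect, the average transgene effect and the interaction, leaving out 1 array gave 0 to 107, 3 to 270, 0 to 4, 1 to 22, 0 to 1246, 2 to 969 and 0 to 2. Without wild type 1 and dB/dB catalase-Tg 1 they were 2597, 9, 2829, 15, 1494, 1049 and 6. Without wild type 2 and 3 the second was 2180, the fourth 174, the fifth 0, the sixth 3375 and the interaction 0. With array weights the third was 6989, the fourth 883, the fifth 1975 and the sixth 4785. With no filter they were 6, 14, 3, then 5 for the fifth, 9 for the sixth and 6 for the interaction. With the proximal tubule score as covariate the first was 7, the second 9, the fourth 210 and the fifth 824. The fit of only the groups compared gave 0 for the second and 2 for the third, a filter at 6 gave 1, quantile normalization 3 and the leukocyte covariate 2 for the fourth, and the leukocyte covariate 0 for the fifth.

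Directions turned in these cases, and the cause was not tested. Without wild type 2 and 3, Nox4 in dB/dB against wild type was 0.46 and Cyba 0.86, the average dB/dB effect of Cyba 0.17 and the interaction of Nox4 -1.10. Nox4 in catalase-Tg against wild type was -0.089 with the tubule covariate and -0.12 without wild type 1 and dB/dB catalase-Tg 1. The interaction of Cyba was 0.47 with array weights and 0.80 without those 2 arrays. Rac1, near 0 throughout, was -0.0054 (centring), -0.066 (next probe set) and -0.31 (without wild type 2 and 3) in the first comparison, -0.0041 (quantile) and -0.35 (without wild type 2 and 3) in the second, 0.019 (tubule covariate) in the third and 0.031 (quantile) in the fourth. Leaving out 1 array gave -0.12 to 1.20 for Nox4 in catalase-Tg against wild type, -0.31 to 1.01 for its interaction, -0.51 to 0.42 for that of Cyba, and for Rac1 -0.070 to 0.27, -0.10 to 0.20, -0.30 to 0.049 and -0.13 to 0.038 in the 4 comparisons of pairs of groups.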
